A study of Mus musculus with 54 samples.

Results

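The 3 pocket protein genes and the 7 genes of the Cip/Kip and Ink4 families of cyclin-dependent kinase inhibitors were followed in differentiating mouse muscle progenitors with and without emerin. The 10 genes were Rb1, Rbl1, Rbl2, Cdkn1a, Cdkn1b, Cdkn1c, Cdkn2a, Cdkn2b, Cdkn2c and Cdkn2d, found by NCBI gene ID in each of the 27 deposited comparison tables, which together list 19653 genes. The cells were H2K myogenic precursor cells, an immortalised line from mice whose cells express a temperature-sensitive SV40 large T antigen under an interferon-inducible promoter, and messenger RNA was sequenced at day 0, 1 and 2 of differentiation. The 54 samples formed 18 groups of 3 labelled replicates, 1 group for each of 6 lines on each of 3 days.

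Wildtype cells carried the intact Emd gene, which encodes emerin, a protein of the inner nuclear membrane whose loss causes X-linked Emery-Dreifuss muscular dystrophy (EDMD). EMD-/y cells lacked emerin. The other 4 lines were EMD-/y cells transduced by lentivirus, with wildtype emerin in the +EMD line and with an EDMD-causing emerin mutant in the S54F, Δ95–99 and Q133H lines. Δ95–99 lacks residues 95 to 99 and is named Del9599 in the labels. Every line was held overnight in proliferative medium with high serum and γ-interferon and sampled as day 0. It was then switched to horse serum medium without interferon and sampled 24 h later as day 1 and after another 24 h as day 2. By the paper's methods, the switch also raised the temperature and lowered the carbon dioxide. The parts of medium, interferon, temperature and differentiation in a difference between day 0 and day 1 cannot be told apart.

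Several features limit the lines as models of emerin loss. Wildtype and EMD-/y cells are separate lines, and each transduced line is 1 line, so a difference between lines and a difference made by emerin cannot be told apart. The transduced lines, +EMD included, were selected with puromycin at doses that differed between lines, and the labels say that the mutant lines were also grown in it. In addition, vector control and mutant lines were plated more densely than wildtype and EMD-/y cells. The values are the authors' means over each group, so no difference given here has a replicate check, and none was tested.

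Pocket proteins bind E2F transcription factors and hold genes of DNA replication silent until cyclin-dependent kinases phosphorylate them. Rb1 encodes the retinoblastoma protein, which also acts with MyoD in muscle gene expression, whereas Rbl1 (p107) and Rbl2 (p130) join the DREAM complex with E2f4 and the MuvB core. The Cip/Kip proteins p21, p27 and p57, encoded by Cdkn1a, Cdkn1b and Cdkn1c, inhibit many cyclin-kinase complexes. The Ink4 proteins of Cdkn2a, Cdkn2b, Cdkn2c and Cdkn2d inhibit only Cdk4 and Cdk6. Myoblasts must leave the cell cycle to form myotubes, and Rb1, Cdkn1a and Cdkn1c are known for their part in that exit. Large T antigen, which γ-interferon induces in H2K cells, binds all 3 pocket proteins.

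The columns of group means summed to between 16719491 and 21128040 normalised counts, over 17215 to 17876 listed genes, of which 13118 to 13593 per table had a mean of at least 10 in the higher group and were compared. Levels are given in CPM, the group mean per 1000000 normalised counts of its own column. Mouse Emd was at 54.8 to 105 CPM in the wildtype groups and at most 0.125 CPM in the 15 groups of the other lines. Its row therefore shows the null background and does not show the transduced emerin. Myod1 and Des, which mark myogenic cells, were at 345 to 1267 and 531 to 3108 CPM. Fibroblast markers summed to 1.07 to 5.17 CPM, endothelial markers to 0.909 to 2.79 and leukocyte markers to 0.651 to 14.2, of which up to 12.9 came from Itgam, and Ptprc was at most 0.105. Over 1356 genes that the tables list under the provider's own identifiers, with no gene symbol, the log levels correlated at r = 0.874 to 0.893 among the wildtype groups, at 0.624 to 0.816 between wildtype and the other groups, and at 0.736 to 0.973 among the other groups. The last 2 ranges overlap. In Q133H at day 0, the interferon-response genes Gbp2 and Irf1 were 7.02-fold and 6.02-fold below wildtype, although every line is described as kept in interferon. B2m, at 2012 CPM against 2013 in wildtype, and H2-K1, at 991 against 1477, were closer. At day 1 Gbp2 was at 247 CPM in Q133H against 93.5 in wildtype, and at day 2 at 160.0 against 37.1, so it stood on the other side of wildtype then. The part of these features in the results below was not tested.

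The promoters of Rbl1 and Cdkn1a are shown because these were the members with the largest lower and the most abundant higher values during differentiation. Rb1 and Cdkn1c had no window and were not searched. For the other 8 of the 10 genes, RefSeq windows of 300 bases (250 before and 50 from the annotated start, GRCm38.p6) were at hand, at 11 starts. They were searched on both strands for the E-box CANNTG bound by MyoD and other bHLH factors, for the E2F words TTTGGCGC, TTTGCCGC, TTTCGCGC and TTTCCCGC, for the GC box GGGCGG and for the consensus p53 site. The Rbl1 window at chr2:157204485-157204784, minus strand, holds 1 E2F word at -18 to -11, counted from 0 at the start base, in capitals.
Rbl1: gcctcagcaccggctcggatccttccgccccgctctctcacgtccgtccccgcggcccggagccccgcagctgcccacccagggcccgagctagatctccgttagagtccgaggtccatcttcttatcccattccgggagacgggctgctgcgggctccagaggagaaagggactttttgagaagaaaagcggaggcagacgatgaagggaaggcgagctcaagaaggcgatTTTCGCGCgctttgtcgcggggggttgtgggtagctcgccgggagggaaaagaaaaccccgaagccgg
The window of the second annotated start of Cdkn1a at chr17:29093519-29093818, plus strand, holds 2 E-boxes at -187 to -182 and -4 to 1, in capitals.
Cdkn1a: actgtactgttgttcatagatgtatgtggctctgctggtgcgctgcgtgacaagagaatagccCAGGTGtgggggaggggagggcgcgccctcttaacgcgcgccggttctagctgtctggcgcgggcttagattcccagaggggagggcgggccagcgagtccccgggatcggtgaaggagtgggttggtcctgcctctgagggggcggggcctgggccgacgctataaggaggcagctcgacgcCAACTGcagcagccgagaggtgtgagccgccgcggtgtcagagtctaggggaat
E2F words are rare, at 2.26% of 32851 promoter windows. Among the members with a window, only Rbl1 and the first start of Cdkn2a (-99 to -92) held one. E-boxes occur in 72.3% of all windows and GC boxes in 35.7%, so neither is rare. Every member with a window held a GC box at 1 or more starts, whereas only Rbl1, Cdkn1a, Cdkn2b and Cdkn2c held an E-box. Whether the members differ from all windows in this was not tested. The full p53 consensus was in 3 of the 32851 windows and in none of the 11 windows of the members. In the window of the first start of Cdkn1a, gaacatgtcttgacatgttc departs from that consensus at 1 base and was not counted. All these counts are of exact letter matches within a short window. The absence of a match bears on nothing outside it. Near matches were not searched for over the windows, so the 1 given for Cdkn1a cannot be compared with the other members.

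All 10 genes passed the filter in all 27 tables. Where genes are compared with each other, the CPM were divided by the listed transcript length in kilobases. Per kilobase, Cdkn1a had the highest median over the 18 groups at 929.6 CPM, followed by Cdkn2a at 169.8, Cdkn1c at 79.5 and Rb1 at 78.6. Cdkn2b at 31.3, Cdkn2c at 28.0, Cdkn1b at 19.6, Rbl1 at 15.4, Cdkn2d at 14.9 and Rbl2 at 8.60 were lower. The spread over groups differed far more than the level. The highest group exceeded the lowest 351-fold for Cdkn1c, 13.6-fold for Cdkn1a, 10.2-fold for Rbl1 and 7.79-fold for Rb1. It was 3.73-fold for Cdkn2d, 3.62-fold for Cdkn2c, 3.39-fold for Cdkn2b, 2.46-fold for Cdkn2a, 2.04-fold for Rbl2 and 1.70-fold for Cdkn1b. A group appears in several tables with its own normalisation, and its level moved by at most 2.06% between them for the 9 genes other than Cdkn1c. Cdkn1c moved by up to 17.1%, in Q133H at day 1 from 15.8 to 18.5 CPM, and it ran from 6.87 to 7.89 CPM in wildtype and from 139.8 to 158 CPM in EMD-/y at day 0. Of the 17 steps between neighbours in each gene's order of groups, 0 to 2 overlapped in that range, but the spread over replicates behind each step is unknown.

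**Figure D1:**
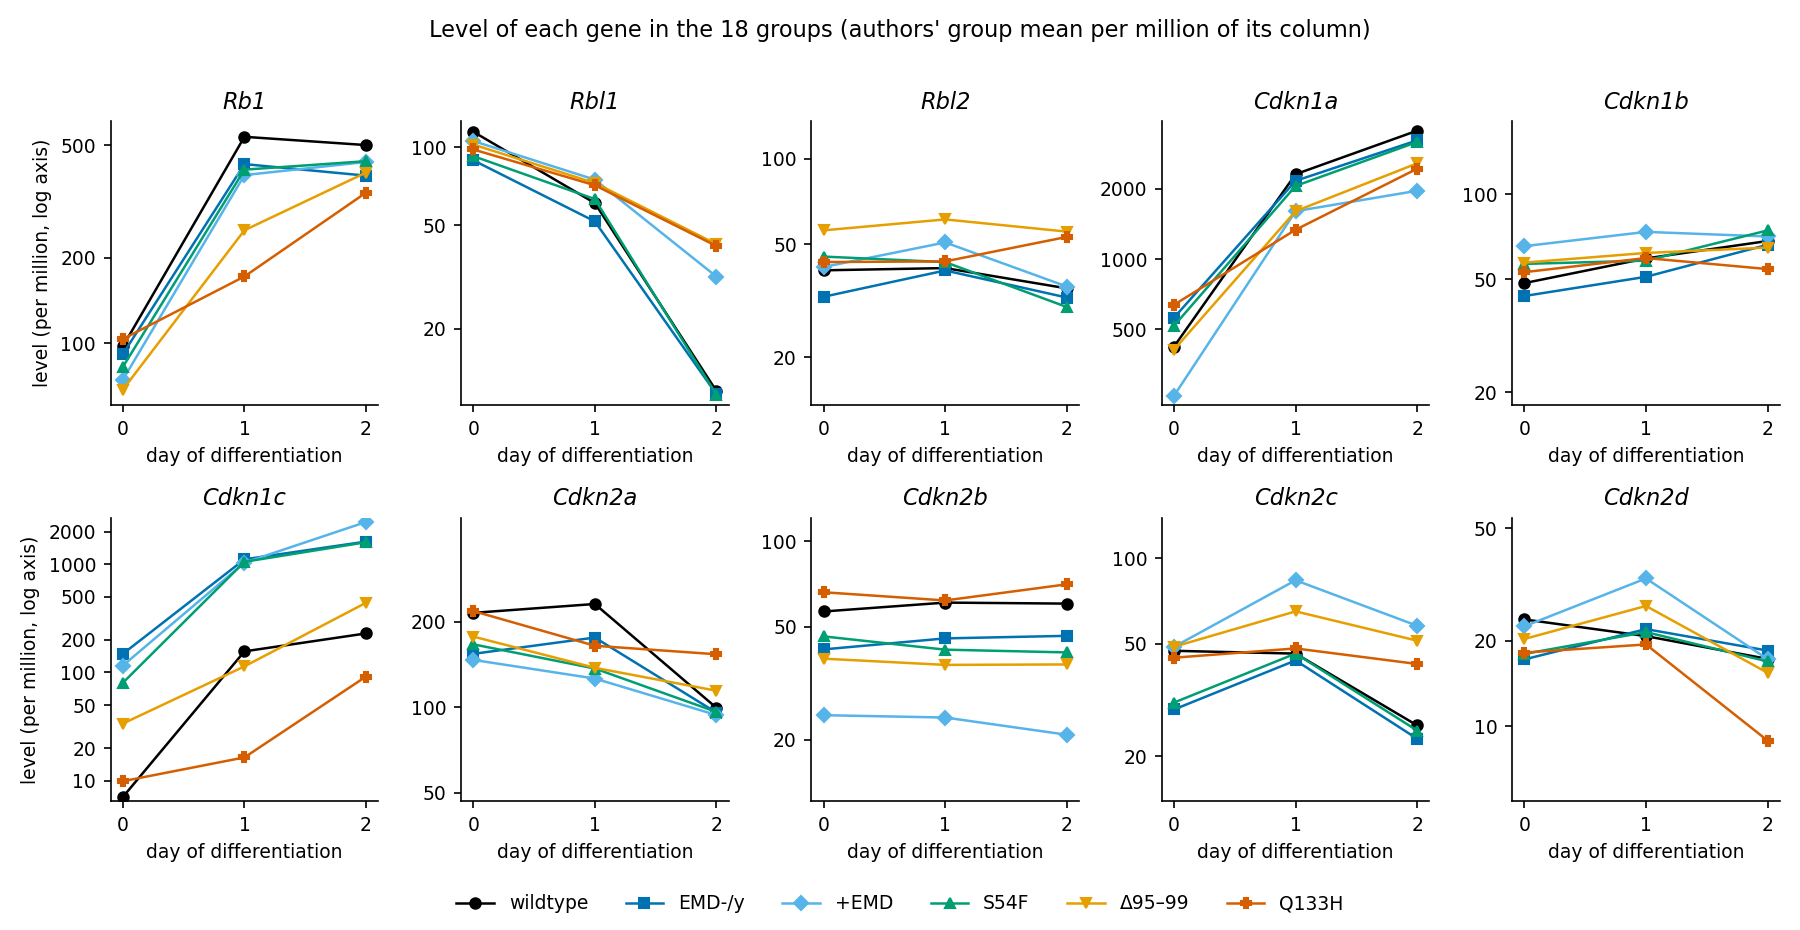
Level of each of the 10 genes (authors' group mean as CPM, log axis) against day of differentiation, with 1 line of points for each of the 6 cell lines. Cdkn1c spans 7.04 to 2469 CPM with the lines far apart, whereas Cdkn1b stays between 43.7 and 74.5.

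Rb1 was at its lowest at day 0 in all 6 lines and 3.56- to 5.58-fold higher a day later in 5 of them, but 1.65-fold higher in Q133H. At day 0 its level was 97.4 CPM in wildtype, 91.5 in EMD-/y, 74.3 in +EMD, 82.5 in S54F, 68.6 in Δ95–99 and 103 in Q133H. At day 1 the same lines stood at 535, 428, 392, 409, 250.3 and 172 CPM. At day 2 they stood at 499.8, 390.0, 436, 439, 399.8 and 339.7 CPM. Thus every day 1 and day 2 group lay above every day 0 group, and the lowest of them was Q133H at day 1.

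Rbl1 ran the other way, from its highest levels at day 0 to its lowest at day 2. Its day 0 levels were 114 CPM in wildtype, 89.0 in EMD-/y, 105 in +EMD, 92.3 in S54F, 102 in Δ95–99 and 97.9 in Q133H. At day 1 they were 60.9, 51.8, 74.9, 63.1, 72.7 and 71.3 CPM in that order. At day 2 they were 11.5, 11.2, 31.8, 11.2, 42.3 and 41.7 CPM. The day 2 groups split into a low set of wildtype, EMD-/y and S54F and a higher set of +EMD, Δ95–99 and Q133H, with no group between them. Rbl2, the pocket protein usually linked to quiescent cells, stayed within 30.1 to 61.2 CPM, and its 3 highest groups were the 3 days of Δ95–99.

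The make-up of the pocket protein family therefore turned over. Per kilobase, Rb1 made up 37.8% of the family's level in wildtype at day 0, 83.8% at day 1 and 91.7% at day 2, while Rbl1 went from 47.4% to 10.2% and 2.26%. The Rb1 level per kilobase was 0.799 times that of Rbl1 in wildtype at day 0, 8.24 times at day 1 and 40.6 times at day 2. EMD-/y (0.966, 7.76 and 32.6) and S54F (0.840, 6.09 and 36.8) had ratios of that order. The ratio at day 2 was only 12.9 in +EMD, 8.86 in Δ95–99 and 7.66 in Q133H, and at day 1 it was 3.23 in Δ95–99 and 2.27 in Q133H.

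Cdkn1a, whose product p21 is induced by both MyoD and p53, was the most abundant of the 10 genes per kilobase in 15 of 18 groups, the others being wildtype and +EMD at day 0, led by Cdkn2a, and +EMD at day 2, led by Cdkn1c. It was at 422 CPM in wildtype at day 0, 561 in EMD-/y, 260.5 in +EMD, 518 in S54F, 409.9 in Δ95–99 and 637 in Q133H. At day 1 the lines stood at 2303, 2158, 1601, 2052, 1601 and 1334 CPM. At day 2 they stood at 3535, 3214, 1957, 3163, 2563 and 2432 CPM. Q133H thus had the highest level at day 0 and the lowest at day 1, and +EMD the lowest at days 0 and 2.

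Cdkn1c encodes p57, an imprinted inhibitor that is induced in myogenic differentiation, and it separated the lines more than any other member. At day 0 it was at 7.04 CPM in wildtype, 149 in EMD-/y, 116 in +EMD, 80.2 in S54F, 33.7 in Δ95–99 and 9.86 in Q133H. At day 1 it was at 157, 1113, 1037, 1057, 114 and 16.4 CPM. At day 2 it was at 229.8, 1626, 2469, 1604, 442 and 91.8 CPM. EMD-/y, +EMD and S54F were alike in order of magnitude on every day and far above wildtype, while Q133H, which derives from EMD-/y cells, was near wildtype at day 0 and below it afterwards. Cdkn1c held 1.53% of the Cip/Kip level per kilobase in wildtype at day 0 and 6.02% at day 2, against 20.1% and 33.2% in EMD-/y. In +EMD at day 2 its share was 55.1%, above the 43.9% of Cdkn1a, and this was the only group in which Cdkn1a was not the highest of the 3 Cip/Kip genes. Cdkn1b, whose product p27 is controlled largely by protein turnover, stayed between 43.7 and 74.5 CPM.

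**Figure D2:**
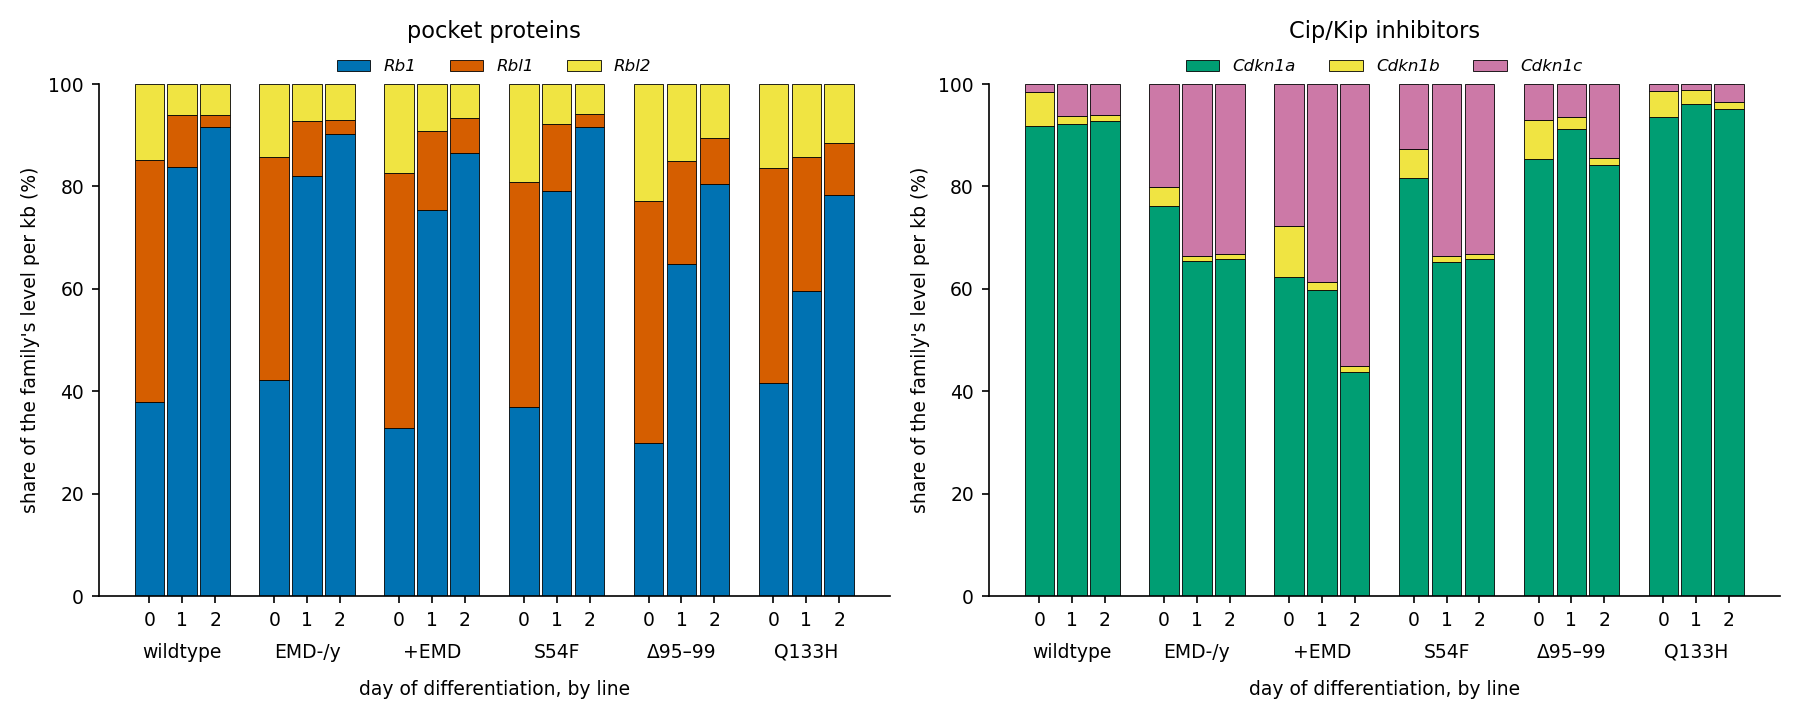
Share of each family's summed level per kilobase (%, stacked bars to 100) held by each gene, by line and day, for the pocket proteins (left) and the Cip/Kip inhibitors (right). Rb1 takes over from Rbl1 in every line, to 91.7% in wildtype and 78.3% in Q133H at day 2, and Cdkn1c reaches 55.1% of the Cip/Kip level in +EMD.

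The Ink4 genes, at 2.46- to 3.73-fold between their highest and lowest groups, varied less than Rb1, Rbl1, Cdkn1a and Cdkn1c. They varied more than Rbl2 and Cdkn1b. Cdkn2a, which encodes both p16Ink4a and p19Arf from different first exons that a gene-level value cannot separate, made up 60.3% to 74.8% of the Ink4 level per kilobase in every group. It was at 215 CPM in wildtype at day 0, 231 at day 1 and 99.5 at day 2. Cdkn2b, the neighbouring p15 gene, was lowest in +EMD on each day, at 24.4, 23.9 and 20.8 CPM against 56.6, 60.8 and 60.3 in wildtype. By CPM it was highest in Q133H, at 66.1, 61.9 and 70.6. Without CPM scaling, the log2 ratio of Q133H to wildtype was -0.08 at day 1 and -0.03 at day 2. The order of Q133H and wildtype on those days therefore depended on the scaling. Cdkn2c, the p18 gene, ranged from 23.1 to 83.6 CPM with its highest level in +EMD at day 1. Cdkn2d, the p19Ink4d gene, ranged from 8.90 in Q133H at day 2 to 33.2 in +EMD at day 1.

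The first question of the design is what changes between days within a line. A gene was counted as past the threshold where the group means of a table differed more than 2-fold. From day 0 to day 1, Rb1, Cdkn1a and Cdkn1c were past it, all higher, in wildtype, EMD-/y, +EMD, S54F and Δ95–99, so 3 of 10 members in each, against a background of 23.3%, 21.9%, 17.8%, 17.1% and 14.5% of all compared genes in either direction. In Q133H only Cdkn1a was past it, against 12.6% of all genes. Over the 6 lines these were 16 of 60 values (26.7%, with 17.9% for all genes). No member was more than 2-fold lower.

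The sizes were largest in wildtype for Cdkn1c. Its level was 22.7-fold higher at day 1 than at day 0 in wildtype, and 7.13-, 8.45-, 13.2-, 3.25- and 1.57-fold higher in EMD-/y, +EMD, S54F, Δ95–99 and Q133H. In wildtype only 0.342% of compared genes had a larger log2 ratio. Rb1 was higher 5.58-, 4.74-, 5.00-, 5.05-, 3.56- and 1.65-fold in the same order, and Cdkn1a 5.57-, 3.89-, 5.83-, 4.01-, 3.83- and 2.08-fold. The pocket protein and the inhibitor genes named here thus had their smallest ratios in Q133H. The next smallest was Δ95–99 for Rb1 and Cdkn1c, while for Cdkn1a Δ95–99 and EMD-/y were nearly equal and their order turned under CPM scaling. Rbl1 was lower by 1.83-, 1.68-, 1.48-, 1.43-, 1.43- and 1.37-fold, within the threshold in each line but on the same side in all 6.

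**Figure D3:**
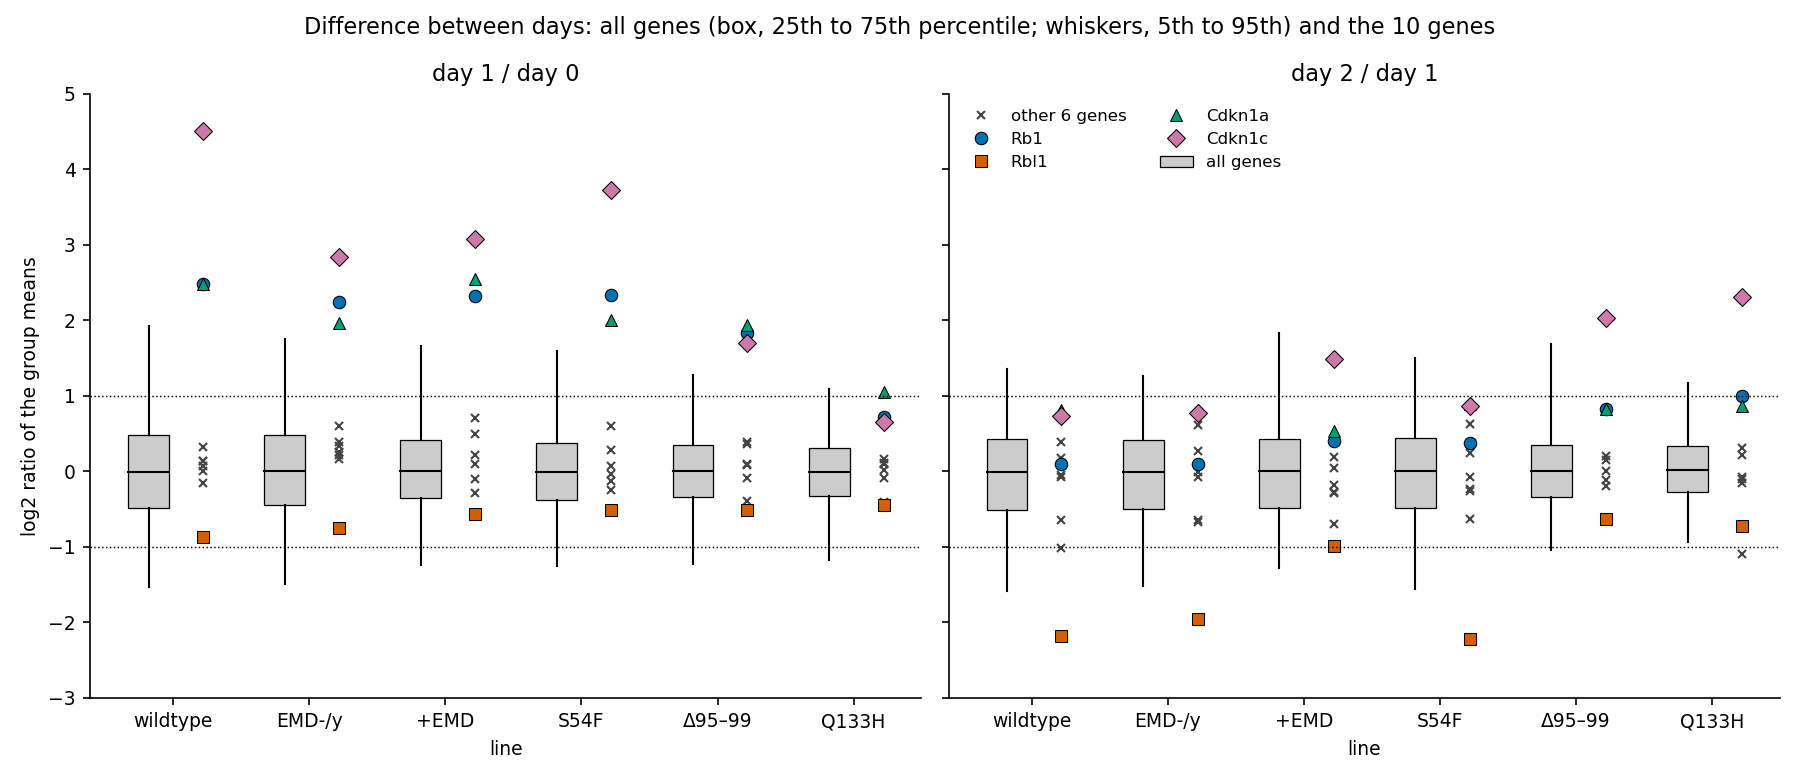
log2 ratio of the group means between days (left, day 1 over day 0; right, day 2 over day 1) for each line, as a grey box and whiskers for all compared genes beside points for the 10 genes, with dotted lines at 2-fold. Rb1, Cdkn1a and Cdkn1c lie above the whiskers in 5 lines on the left, with Cdkn1c at 4.51 in wildtype, and Rbl1 lies below them on the right in wildtype (-2.18), EMD-/y and S54F.

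From day 1 to day 2 the members past the threshold were Rbl1 and Cdkn2a, both lower, in wildtype (20.3% of all genes past it), Rbl1, lower, in EMD-/y (19.2%) and S54F (21.0%), Cdkn1c, higher, in +EMD (21.1%) and Δ95–99 (14.7%), and in Q133H Cdkn1c, higher, with Cdkn2d, lower (11.1%). This made 8 of 60 values, 13.3%, with 17.9% for all genes. Rbl1 was 4.54-fold lower in wildtype, 3.86-fold in EMD-/y and 4.66-fold in S54F, but 1.99-fold in +EMD, just inside the threshold, 1.55-fold in Δ95–99 and 1.66-fold in Q133H. Only 2.29% of genes had a lower log2 ratio than Rbl1 in wildtype. Cdkn1c was a further 1.66-fold higher in wildtype, 1.71-fold in EMD-/y and 1.83-fold in S54F, against 2.81-fold in +EMD, 4.06-fold in Δ95–99 and 4.95-fold in Q133H. The lines with the smaller Cdkn1c ratio in the first day therefore had the larger in the second for Δ95–99 and Q133H, and Rb1 had the same order, with 1.76-fold in Δ95–99 and 1.98-fold in Q133H against 1.07-fold in wildtype and EMD-/y, where the sign turned when the columns were scaled to CPM. Cdkn1a was 1.45- to 1.86-fold higher in all 6 lines. Cdkn2a was 2.03-fold lower in wildtype and Cdkn2d 2.14-fold lower in Q133H.

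The second question is how each line differs from wildtype on the same day. The 5 comparisons of a day share the wildtype samples, so likeness among them is not independent. At day 0, Cdkn1c was the member past the threshold in EMD-/y, S54F and Δ95–99, 1 of 10 each, with 9.12%, 12.3% and 12.7% of all genes past it. In +EMD Cdkn1c was higher and Cdkn2b lower (17.3%), and in Q133H no member passed (15.1%). The block held 5 of 50 values, 10%, with 13.3% for all genes. Cdkn1c was 17.9-fold higher in EMD-/y, 16.5-fold in +EMD and 10.8-fold in S54F, then 4.60-fold for Δ95–99 and 1.38-fold for Q133H. The wildtype mean behind these ratios was the lowest among the members, between 127 and 146 normalised counts over the day 0 tables. In EMD-/y only 0.269% of genes had a larger log2 ratio. Cdkn2b was 2.29-fold lower in +EMD. The other 8 genes were within 2-fold of wildtype in all 5 lines before differentiation.

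At day 1 the past-threshold members were Cdkn1c in EMD-/y (7.68% of all genes past it), Cdkn1c and Cdkn2b in +EMD (20.1%), Cdkn1c in S54F (12.5%), Rb1 in Δ95–99 (21.3%), and Rb1 with Cdkn1c in Q133H (24.6%), 7 of 50 values or 14% against 17.3%. Cdkn1c was 6.97-fold higher in EMD-/y, 6.21-fold in +EMD and 6.51-fold in S54F. It was 1.5-fold lower in Δ95–99 and 10.3-fold lower in Q133H, so the 5 lines without mouse Emd lay on both sides of wildtype. Rb1 was 2.34-fold lower in Δ95–99 and 3.35-fold lower in Q133H. In both lines all 9 muscle structural genes were also more than 2-fold below wildtype. In +EMD most of the 9 were as well, although Rb1 was within the threshold there, at log2 -0.53. Cdkn1a was below wildtype in all 5 lines by log2 values of -0.08 in EMD-/y, -0.60 in +EMD, -0.20 in S54F, -0.66 in Δ95–99 and -0.90 in Q133H, none past the threshold. Cdkn2a was also lower in all 5, by 1.3- to 1.94-fold. Cdkn2b was 2.68-fold lower in +EMD.

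At day 2 the members past the threshold were Cdkn1c in EMD-/y (7.98% of all genes) and S54F (11.1%), Rbl1, Cdkn1c and Cdkn2c higher with Cdkn2b lower in +EMD (18.8%), Rbl1 in Δ95–99 (22.5%), and Rbl1 higher with Cdkn1c and Cdkn2d lower in Q133H (33.9%). This was 10 of 50 values, 20%, near the 19.0% for all genes. Rbl1 was 2.67-fold higher in +EMD, 3.22-fold in Δ95–99 and 2.98-fold in Q133H, and within 1.01-fold of wildtype in EMD-/y and S54F. Cdkn1c was 6.87-fold higher in EMD-/y, 10.4-fold in +EMD and 7.15-fold in S54F, 1.70-fold higher in Δ95–99 and 2.90-fold lower in Q133H. Cdkn2c was 2.18-fold higher and Cdkn2b 2.98-fold lower in +EMD, and Cdkn2d 2.32-fold lower in Q133H. Rb1 was 1.42-fold lower in Δ95–99 and 1.75-fold lower in Q133H, closer to wildtype than at day 1. Cdkn1a was again below wildtype in all 5 lines, at log2 -0.08, -0.89, -0.12, -0.65 and -0.79 in the order of lines used above.

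**Figure D4:**
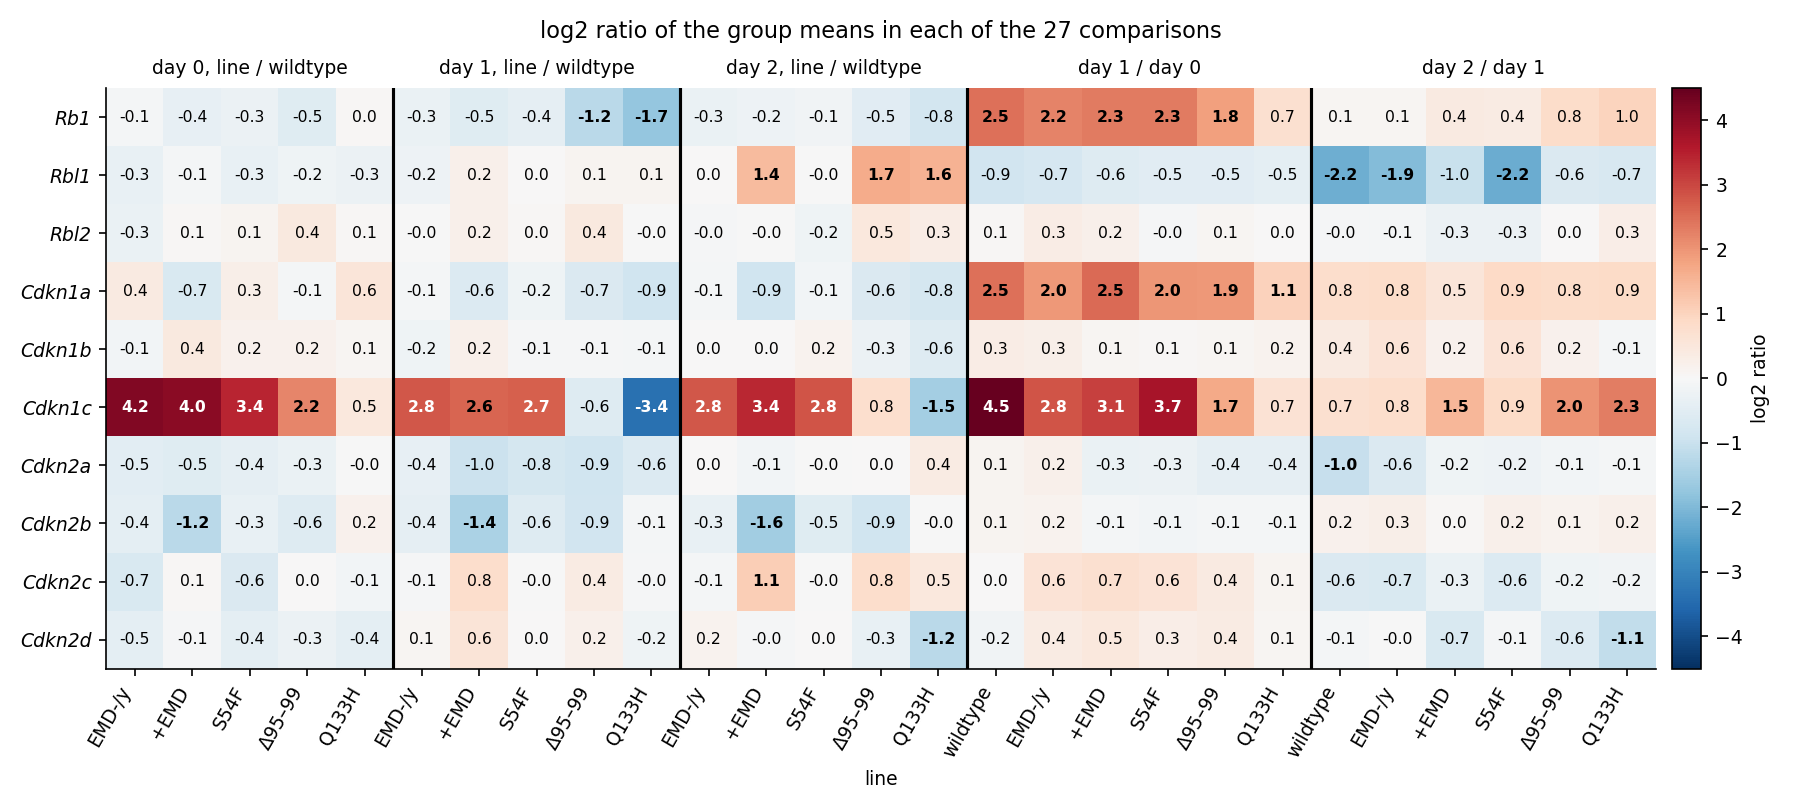
log2 ratio of the group means for each gene (rows) in each of the 27 comparisons (columns, grouped by day and kind), coloured from blue (lower) through white to red (higher), with values past 2-fold in bold. The Cdkn1c row runs from 4.16 for EMD-/y to 0.46 for Q133H against wildtype at day 0, and Rbl1 is positive past 2-fold at day 2 in +EMD, Δ95–99 and Q133H.

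The +EMD line, which carries transduced wildtype emerin, was more than 2-fold from wildtype for 4 of the 10 members at day 2, with 18.8% for all genes. Of these, Rbl1, Cdkn2b and Cdkn2c were within 2-fold of wildtype in EMD-/y, the line from which +EMD was made, with levels of 11.2, 46.4 and 23.1 CPM against 31.8, 20.8 and 57.8 in +EMD. Cdkn1c was past it in both. No table compares +EMD with EMD-/y directly, and the levels are set side by side here across tables normalised separately.

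Whether a line's difference between days departed from that of wildtype was read as the line's log2 ratio minus the wildtype log2 ratio, with no test. It reached 1 in size for 12 of 100 values. From day 0 to day 1, Cdkn1c gave -1.67 in EMD-/y (3.84% of all genes reached 1), -1.43 in +EMD (10.8%), -2.81 in Δ95–99 (13.4%) and -3.85 in Q133H (19.0%), where Rb1 gave -1.76 and Cdkn1a -1.42 as well, and no member reached it in S54F (8.76%). From day 1 to day 2, Rbl1 gave 1.19 in +EMD (11.5%), 1.55 in Δ95–99 (13.9%) and 1.46 in Q133H (16.9%), Cdkn1c gave 1.29 in Δ95–99 and 1.57 in Q133H, and Cdkn2d gave -1.02 in Q133H. In EMD-/y (2.81%) and S54F (5.63%) no member reached it in that step. The same quantity taken from the comparisons with wildtype differed by 0.316 at most and had the same sign in all 12. In EMD-/y and +EMD the Cdkn1c level stayed above wildtype throughout, by 17.9- and 16.5-fold at day 0 and by 6.97- and 6.21-fold at day 1.

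Genes that pocket proteins and inhibitors act through were counted from lists chosen by role. The 17 E2F target genes of S phase included Mcm5 of the replicative helicase, Cdc6, which loads it, and Tk1 of thymidine salvage. Between day 0 and day 1, 3 were past the threshold in wildtype (23.3% of all genes in either direction) and 2 in EMD-/y (21.9%), all lower. In the other lines 0 of the 17 targets passed it (12.6% to 17.8% of all genes). Their median log2 ratio in that step was -0.70 in wildtype, -0.60 in EMD-/y, 0.23 in +EMD, -0.07 in S54F, 0.12 in Δ95–99 and 0.11 in Q133H, and Tk1 was 4.10-fold lower in wildtype. From day 1 to day 2, 17 of the 17 targets were more than 2-fold lower in wildtype (20.3% of all genes past the threshold in either direction). The count was 16 targets in EMD-/y (19.2%), 12 in +EMD (21.1%), 16 in S54F (21.0%), 7 in Δ95–99 (14.7%) and 13 in Q133H (11.1%). Their median log2 ratio was -2.07, -1.90, -1.18, -2.37, -0.86 and -1.32 in that order, and the median over all genes lay between -0.016 and 0.019 in every table. Tk1 was 19.3-fold lower in wildtype and 4.45-fold lower in +EMD.

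Against wildtype, the S phase targets had medians of -0.08 to 0.27 on the log2 scale at day 0. The shares of all genes past 2-fold to read the following list counts by were 7.68%, 20.1%, 12.5%, 21.3% and 24.6% at day 1 and 7.98%, 18.8%, 11.1%, 22.5% and 33.9% at day 2 in EMD-/y, +EMD, S54F, Δ95–99 and Q133H. At day 1, 11 of 17 were more than 2-fold higher in +EMD, 8 in Δ95–99, 4 in Q133H, 1 in S54F and 0 in EMD-/y. At day 2, 16 were higher in +EMD, 16 in Δ95–99, 14 in Q133H, 2 in EMD-/y and 1 in S54F, with medians of 2.30, 2.10, 1.5, 0.43 and 0.46. The 5 mitotic genes, among them Mki67 and Cdk1, were all past the threshold and higher at day 2 in +EMD, Δ95–99 and Q133H, and 4 of 5 in EMD-/y and S54F. Mki67 was 34.6-fold above wildtype in +EMD and 5.09-fold in EMD-/y.

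**Figure D5:**
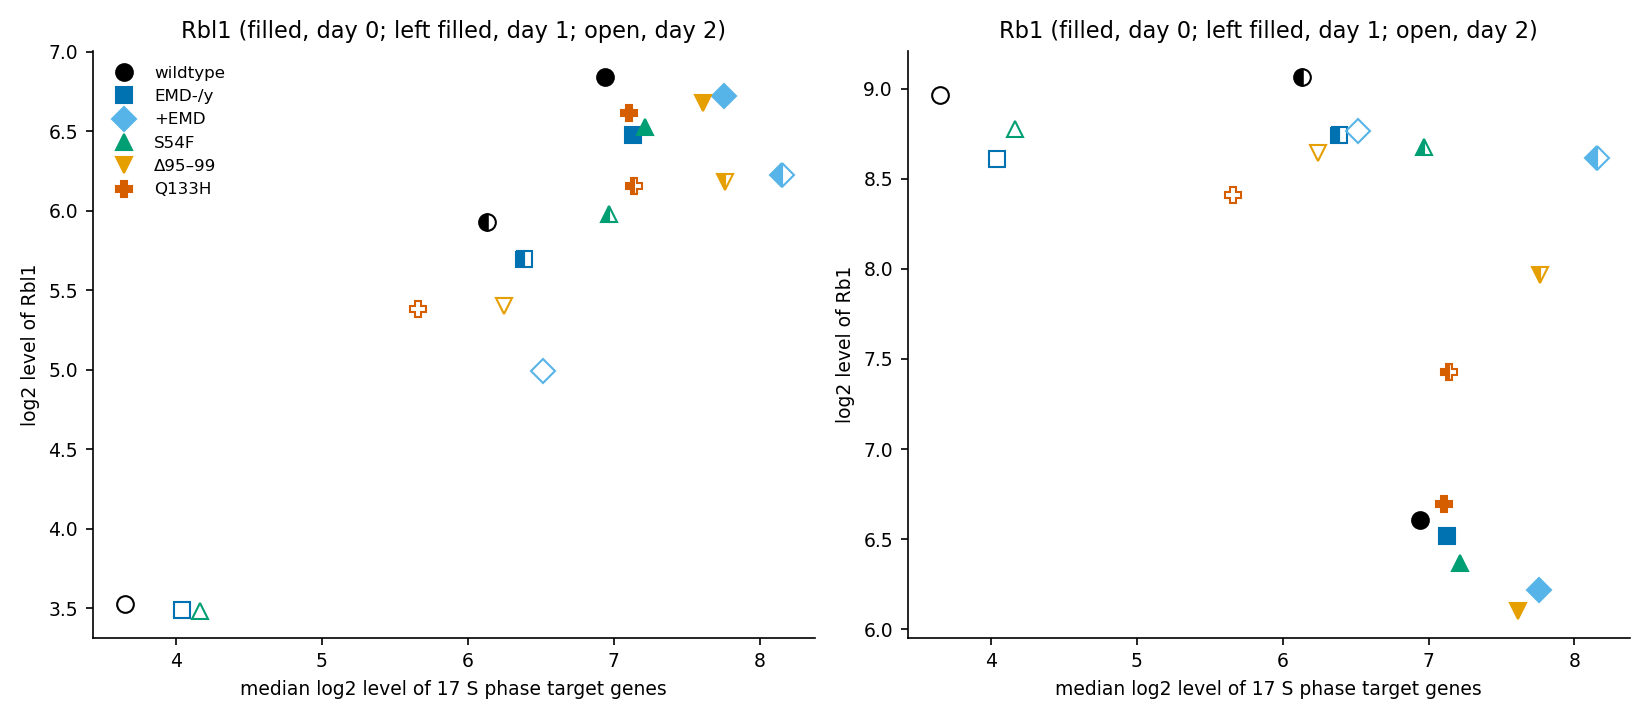
log2 level CPM of Rbl1 (left) and Rb1 (right) against the median log2 level of 17 S phase target genes in the 18 groups, with the shape for the line and the fill for the day. Rbl1 and the targets are lowest together in wildtype, EMD-/y and S54F at day 2 (r = 0.93), whereas Rb1 separates day 0 from the later days (r = -0.56).

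Of the E2F factors, the repressor E2f7 had the largest day 1 to day 2 ratio in every line, from 26.4-fold lower in wildtype to 4.27-fold lower in Q133H. E2f2, an activator, was the single member of that list past the threshold from day 0 to day 1 (12.6% to 23.3% of all genes). It was higher in wildtype (3.32-fold), EMD-/y (2.42-fold), +EMD (3.12-fold) and S54F (3.80-fold). In Q133H it was below wildtype on all 3 days, by 3.44-, 10.7- and 7.06-fold. Of the 9 G1 and S phase cyclins and kinases, 5 were higher than wildtype at day 2 in Δ95–99 (22.5% of all genes past the threshold in either direction) and in Q133H (33.9%), 3 in +EMD (18.8%), 2 in S54F (11.1%) and 1 in EMD-/y (7.98%), and 2 were lower in Q133H. Ccna2, the S phase cyclin, was 22.2-fold higher in +EMD and Ccnd1, the cyclin partner of Cdk4 and Cdk6, 10.9-fold higher in Q133H. Of the 7 genes of the MuvB core with Mybl2 and Foxm1, only those 2 passed the threshold from day 1 to day 2 (11.1% to 21.1% of all genes). Both were lower in all 6 lines, and in wildtype they were 13- and 13.2-fold lower.

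The SCF-Skp2 genes, whose products mark p27 and other inhibitors for degradation, had 2 of 6 members lower from day 1 to day 2 in every line except S54F, with 3, against 11.1% to 21.1% of all genes past the threshold in that step. Skp2 was 3.42-fold above wildtype in +EMD at day 1 and 3.53-fold at day 2. Cdkn1b RNA stayed within 2-fold of wildtype throughout, and p27 protein was not measured. Of 9 regulators of the Ink4 locus, 4 were higher than wildtype at day 2 in Δ95–99 (22.5% of all genes) and in Q133H (33.9%), 3 in +EMD (18.8%), 1 in S54F (11.1%) and 0 in EMD-/y (7.98%). They included Hmga2, a chromatin protein that lowers Ink4 expression, at 10.3-fold above wildtype in Q133H, where Cdkn2a was 1.29-fold above wildtype.

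Cdkn1a was joined by other p53 target genes in the first day. Of 12 genes, Trp53 and 11 targets without Cdkn1a, 11 were more than 2-fold higher at day 1 than at day 0 in wildtype, 10 in EMD-/y, 11 in +EMD, 10 in S54F, 11 in Δ95–99 and 6 in Q133H, and none was lower, against 12.6% to 23.3% of all genes past the threshold in that step. Trp53inp1 was 15.5-fold higher in wildtype and Mdm2 3.41-fold higher in Q133H. From day 1 to day 2 none of the 12 was higher, and 5 were lower in wildtype, 5 in EMD-/y, 3 in +EMD, 2 in S54F and 0 in Δ95–99 and Q133H (11.1% to 21.1% of all genes), whereas Cdkn1a was higher in all 6 lines. At day 0, 5 of the 12 were above wildtype in Q133H (15.1% of all genes), the line with the highest Cdkn1a level that day.

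Of 9 muscle structural genes, 8 were more than 2-fold higher at day 1 than day 0 in wildtype (23.3% of all genes past 2-fold in either direction). The count was 7 in EMD-/y (21.9%), 8 in +EMD (17.8%) and 7 in S54F (17.1%). In Δ95–99 none was higher and 1 lower (14.5%), and in Q133H none was higher and 6 were lower (12.6%). All 9 were higher at day 2 than day 1 in all 6 lines (11.1% to 21.1% of all genes). Against wildtype at day 1, 8 were lower in +EMD (20.1%), 9 in Δ95–99 (21.3%), 9 in Q133H (24.6%), 1 in S54F (12.5%) and 0 in EMD-/y (7.68%). At day 2, 2 were lower in +EMD (18.8%), 7 in Δ95–99 (22.5%), 9 in Q133H (33.9%) and 0 in EMD-/y (7.98%) and S54F (11.1%). In bulk samples, fewer cells that differentiated and less RNA per cell cannot be told apart, and this holds for each level given here.

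Over the 18 groups, which share lines and days, Rbl1 correlated with the median log2 level of the mitotic genes at r = 0.97, with the S phase targets at 0.93 and with the muscle structural genes at -0.86. Rb1 and Cdkn1a had r = 0.96 with each other, and 0.81 and 0.82 with the muscle structural genes. Rb1 had -0.69 with Rbl1 and Cdkn1a -0.78. With the interferon-response genes r was of like size, at -0.83 for Rb1, -0.83 for Cdkn1a and 0.82 for Rbl1. These are descriptions over 18 group means, dominated by the day.

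Among 10576 genes with at least 1 CPM in every group, the genes most like each member were ranked by the same correlation. Rb1 was closest to Traf4 (0.985), Zfp36l1 (0.983) and Pcx (0.978), Rbl1 to Zwilch (0.991), Cntln (0.989) and Haus6 (0.988), and Cdkn1a to Spryd4 (0.98), Chordc1 (0.979) and Acyp1 (0.977). Cdkn1c was closest to Mymx (0.934), which encodes a muscle fusion micropeptide, Heg1 (0.931) and Rnf217 (0.931). For the other members the highest r was 0.905 for Rbl2 with Zfp809, 0.836 for Cdkn1b with Dnaja3, 0.936 for Cdkn2a with S100a4, 0.893 for Cdkn2b with Aup1, 0.923 for Cdkn2c with Phrf1 and 0.825 for Cdkn2d with Abhd8.

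Some reads may be shared with overlapping genes, since the libraries are not stated to keep strand. In the RefSeq annotation, exons of Rb1 overlap those of Lpar6, at most 23.4 CPM here, and Rcbtb2, at most 67.2, and exons of Rbl2 overlap those of Aktip, at most 50. Antisense or predicted genes that overlap Rbl2, Cdkn1a and Cdkn1c are not listed in the tables. On the GRCm38.p6 assembly Rb1 lies at chr14:73192858-73325951, Rbl1 at chr2:157145893-157204534 and Rbl2 at chr8:91070057-91123844. Cdkn1a lies at chr17:29090979-29100722, Cdkn1b at chr6:134920401-134925525 and Cdkn1c at chr7:143458339-143461059. Cdkn2a and Cdkn2b lie side by side at chr4:89274473-89294619 and chr4:89306289-89311032, Cdkn2c on the same chromosome at chr4:109660876-109666756 and Cdkn2d at chr9:21288459-21291421.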

How the data were processed

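Poly-A RNA was sequenced as 100 bp paired reads (DNBseq). The authors aligned reads with HISAT2 to mm10 and compared groups with DESeq2; the annotation and versions are not given in the sources used here. Each of the 27 deposited tables holds, per gene, a length, 2 group means of normalised counts (a signal with no replicate values, averaged by the authors), and their fold change and p-values, which were not used. The labels give 3 replicates per group, from 2 biological replicates with technical repeats, without saying which are which, and the labels and methods differ on the temperature of proliferating cultures.

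The main value, computed with Python 3.11.15, numpy 2.4.6 and pandas 2.3.3, was the log2 ratio of a table's 2 group means, without pseudocount, for genes with a higher mean of at least 10, counted past 2-fold. Levels are group means per 1000000 of their column (CPM). Scripts were tested on simulated data. The members and lists were chosen with earlier results of these data known. Named were all 10 members, at most 3 genes per list, those with the largest log2 ratio in the comparison described, and the 3 genes most alike per member (1 for Rbl2, Cdkn1b and the Ink4 genes), besides examples of markers; one result is not reported here. The alternatives were a 1.5-fold threshold, a filter at 50 or none, a pseudocount of 1, scaling to CPM and centring on the median gene.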

Additional observations from a re-analysis of the deposited data

How the results depend on the processing

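The counts of members past the threshold depended on where it was set. At 1.5-fold instead of 2-fold, against wildtype they were 9 in place of 5 at day 0, 18 in place of 7 at day 1 and 18 in place of 10 at day 2, and from day 1 to day 2 they were 29 in place of 8. From day 0 to day 1 the count was 23 in place of 16, within 1.5 times. The other alternatives kept all 5 of these counts within 1.5 times. Of 1350 single values of a member under an alternative, 1348 kept their side of 2-fold, and no value past 2-fold changed sign. With columns scaled to CPM, Cdkn2d in Q133H against wildtype at day 2 was -0.96 on the log2 scale and no longer past 2-fold, and Rbl1 in +EMD from day 1 to day 2 was -1.23 and now past it. Scaling to CPM moved log2 ratios by -0.27 to 0.25 in a table. Under it or under centring on the median gene, 22 of 270 ratios had another sign, the largest of them 0.24 in size as reported. No paired analysis was possible because the tables hold group means only, and for the same reason no replicate could be left out and no interval was available. The group mean with the fewest normalised counts among the members was Cdkn1c in wildtype at day 0, at 127.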

Other observations

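Cdkn1c lies in an imprinted cluster, and its neighbours were looked at after its values were seen. Of the genes within 500 kb that could be compared in all 15 comparisons with wildtype, Nap1l4, Cars, Osbpl5, Cd81, Tnfrsf22, Mrgpre and Nadsyn1 were within 2-fold in each, whereas Cdkn1c was higher in 10 and lower in 2. Tssc4 was higher in 5 of 15, all at day 2, by log2 values of 1.37 in EMD-/y, 3.74 in +EMD, 2.69 in S54F, 3.68 in Δ95–99 and 3.06 in Q133H, and its level ran from 1.03 to 25.1 CPM over the 18 groups. Dhcr7 was lower in 4 and Tnfrsf23 in 1. Tnfrsf26, at most 5.45 CPM, could be compared in 10 and was higher in 3 and lower in 4. Tspan32, at most 6.26 CPM, could be compared in 6 and was higher in 3 and lower in 1. Kcnq1, at most 1.07 CPM, could be compared in 1, +EMD at day 2, and was higher. Slc22a18, at most 0.864 CPM, could be compared in 1, Q133H at day 2, and was higher. Near Cdkn2b, which was lower in 3 comparisons, Cdkn2a was past 2-fold in none and Mtap was higher in 1, and Gm13288, at most 1.28 CPM, could be compared in 11 and was higher in 1 and lower in 2.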
